A study of Mus musculus with 16 samples.

Results

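Malat1, Neat1, Meg3, Rian, Mirg, H19, Kcnq1ot1 and Gas5 are long noncoding RNAs that act in the nucleus, come from imprinted clusters or carry small RNAs in their introns. They were taken by gene name, as 8 of the 57010 genes and 8 of the 11599 genes annotated lncRNA in the count tables, and each name matched 1 row. Malat1 was chosen because it rose after 14,15-EET, so the comparison of EET with PBS is described below without a test.

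RNA-seq of granulosa cells (mGCs) of female ICR mice was measured in 16 libraries. The Con-mGC group (n = 5) came from sham-operated mice and the EM-mGC group (n = 5) from mice that received endometrial tissue of donor mice stitched to the mesentery, a surgical model of endometriosis in which the host keeps its own ovaries. Surgery was done at 6 weeks of age, recipients were given estradiol for 14 days, and ovulation was induced on day 30. The methods name PMSG or HCG for this and, in the general protocol, collection of ovaries 44 to 46 h after PMSG. Which of them applied to these libraries was not given. The PBS group (n = 3) and the EET group (n = 3) were mGCs of 6 EM model mice, cultured in medium with fetal bovine serum. A figure legend of the paper gives 24 h of culture, then another 24 h with PBS or with 100 nM 14,15-EET, a lipid made from arachidonic acid. The labels and methods give only 24 h of culture for the PBS group. The methods state that these cells were split at random between both treatments and that the 3 replicates were paired. Which libraries form a pair, and whether cells were pooled, was not given in the sources used here, so p-values that involve them may measure only technical spread. RNA was selected for poly(A).

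Malat1 accumulates at nuclear speckles, stores of splicing factors, and Neat1 is the scaffold of paraspeckles, bodies that hold RNA-binding proteins. Of an imprinted gene only 1 parental copy is normally active: Meg3, Rian and Mirg are read from the maternal copy of the Dlk1-Dio3 region, while Dlk1, Rtl1 and Dio3 are read from the paternal copy. H19 is maternal and shares enhancers with paternal Igf2, and Kcnq1ot1 is a paternal antisense transcript that silences neighbours such as Cdkn1c on the same chromosome. Gas5 is a host gene whose introns give snoRNAs, the guides of ribosomal RNA modification.

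Malat1 and the long form of Neat1 lack an ordinary poly(A) tail and end at an A-rich tract written in the genome, and these libraries were selected for poly(A), so the sequences at the tract are shown. They were read from the GENCODE vM21 transcripts Malat1-201 and Neat1-201 (GRCm38, sense strand), with the tract (5 or more A followed by GCAAAA) in capitals.

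Malat1-201, bases 6614 to 6719: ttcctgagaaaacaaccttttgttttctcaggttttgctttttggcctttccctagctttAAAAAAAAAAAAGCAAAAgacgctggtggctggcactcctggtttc

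Neat1-201, bases 20701 to 20771: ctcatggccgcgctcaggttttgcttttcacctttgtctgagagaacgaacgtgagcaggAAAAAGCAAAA

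The tract occurred once in each transcript, and Malat1-201 went on for 292 bases after it while Neat1-201 ended there.

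Promoters of Meg3 and Rian are shown next because both RNAs were called lower in the PBS group than in EM-mGC and varied together across mice. RefSeq promoters (GRCm38.p6, 300 bases around the start, most of them before it) were found for 6 of the 8 members, as 8 promoters. Capitals mark the cyclic AMP response element TGACGTCA and the TATA letters TATAAA, searched on both strands.

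Meg3, chr12:109540746-109541045, plus strand: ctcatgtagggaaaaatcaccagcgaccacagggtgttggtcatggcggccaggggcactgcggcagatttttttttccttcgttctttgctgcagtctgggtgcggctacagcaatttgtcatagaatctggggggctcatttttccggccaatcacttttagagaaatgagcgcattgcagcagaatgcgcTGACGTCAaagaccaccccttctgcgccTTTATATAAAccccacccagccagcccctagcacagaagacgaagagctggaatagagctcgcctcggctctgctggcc

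Rian, chr12:109603695-109603994, plus strand: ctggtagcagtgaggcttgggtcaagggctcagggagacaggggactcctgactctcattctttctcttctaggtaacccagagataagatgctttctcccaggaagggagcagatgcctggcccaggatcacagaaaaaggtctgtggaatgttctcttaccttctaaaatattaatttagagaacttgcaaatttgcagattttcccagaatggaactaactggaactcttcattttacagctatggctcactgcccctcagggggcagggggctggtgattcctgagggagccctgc

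Meg3 had 2 promoters in the table, and the upstream one is shown. It held TGACGTCA at -57 and TATAAA at -25, with a match on the other strand at -29 that overlaps it. The element occurred in 588 of 32851 RefSeq promoters of the same length (1.79%) and TATAAA in 4473 (13.6%). Of the other members only Gas5 held TGACGTCA, at -46 in 1 of its 2 promoters, and the Rian and Mirg promoters held neither motif. The Meg3 promoter shown had 13 CpG pairs and that of Rian 0, with a median of 7 over all promoters. The other Meg3 promoter, at chr12:109545148-109545447, held neither motif and had 1 CpG pair.

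The spans of Meg3, Rian, Mirg and H19 held 22 annotated microRNA genes, of which 20 had a RefSeq entry with 37 mature sequences and 36 different seeds (bases 2 to 8, in capitals). The H19 and Meg3 microRNAs and the 1 pair with a shared seed are shown, since they are what these host transcripts are processed into.

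miR-675-5p, in H19: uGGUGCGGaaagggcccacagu

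miR-675-3p, in H19: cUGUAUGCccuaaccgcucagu

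miR-770-5p, in Meg3: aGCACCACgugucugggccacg

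miR-770-3p, in Meg3: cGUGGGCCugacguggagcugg

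miR-1906, in Meg3: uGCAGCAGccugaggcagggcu

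miR-453, in Mirg: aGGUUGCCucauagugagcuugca

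miR-496a-5p, in Mirg: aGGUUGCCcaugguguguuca

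These poly(A) libraries did not measure them: the microRNA genes had 60 reads in all 16 libraries together, and 12 of the 22 had none. The values below are therefore those of the host transcripts.

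Libraries of the Con-mGC and EM-mGC groups held 14229123 to 15999234 counts and those of the PBS and EET groups 21384686 to 29482826. Among the 10 fresh libraries 2 stood apart. Con-mGC-1 had 22071 genes detected against 25080 to 27642 in the others, and EM-mGC-3 had 21.9% of its counts on mitochondrial genes against 6.76% to 11.1%. LncRNAs held 1.09% of counts in Con-mGC-1 and 0.797% in EM-mGC-3, the lowest of the fresh libraries, against 1.35% to 1.66% in the other 8. Red blood cell markers (5 genes) summed to 2439 to 16049 CPM in the EM-mGC group, highest in EM-mGC-3. In the cultured groups lncRNAs held 0.571% to 0.651% of counts.

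Levels are CPM, counts scaled to a common library size, after TMM scaling over all 16 libraries. Per kilobase of exon, Malat1 had the highest level of the 8 in all 4 groups, at 199 ± 49.8 CPM per kb (SD, n = 5) in the Con-mGC group, with no overlap with the next member. Gas5 followed at 40.2 ± 3.23, Neat1 at 32.8 ± 10.3 and Meg3 at 20.2 ± 3.20 CPM per kb, neighbours whose libraries overlapped. Neat1 was divided by 20.8 kb of exon, the length of its long form, which lacks an ordinary poly(A) tail. A shorter form would give it a higher level per kb, so its place below Malat1 and Gas5 depends on that length. Rian at 11.3 ± 2.01, H19 at 5.19 ± 2.06, Mirg at 1.44 ± 0.241 and Kcnq1ot1 at 0.460 ± 0.0735 CPM per kb were each apart from their neighbours in that group. In the cultured groups H19 moved below Mirg, to 0.0415 ± 0.0373 CPM per kb with PBS (n = 3), where it overlapped Kcnq1ot1. Together the 8 members made up 18.1% to 26.5% of lncRNA counts in fresh cells, 13.3% to 14.4% with PBS and 14.9% to 15.6% with 14,15-EET.

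**Figure D1:**
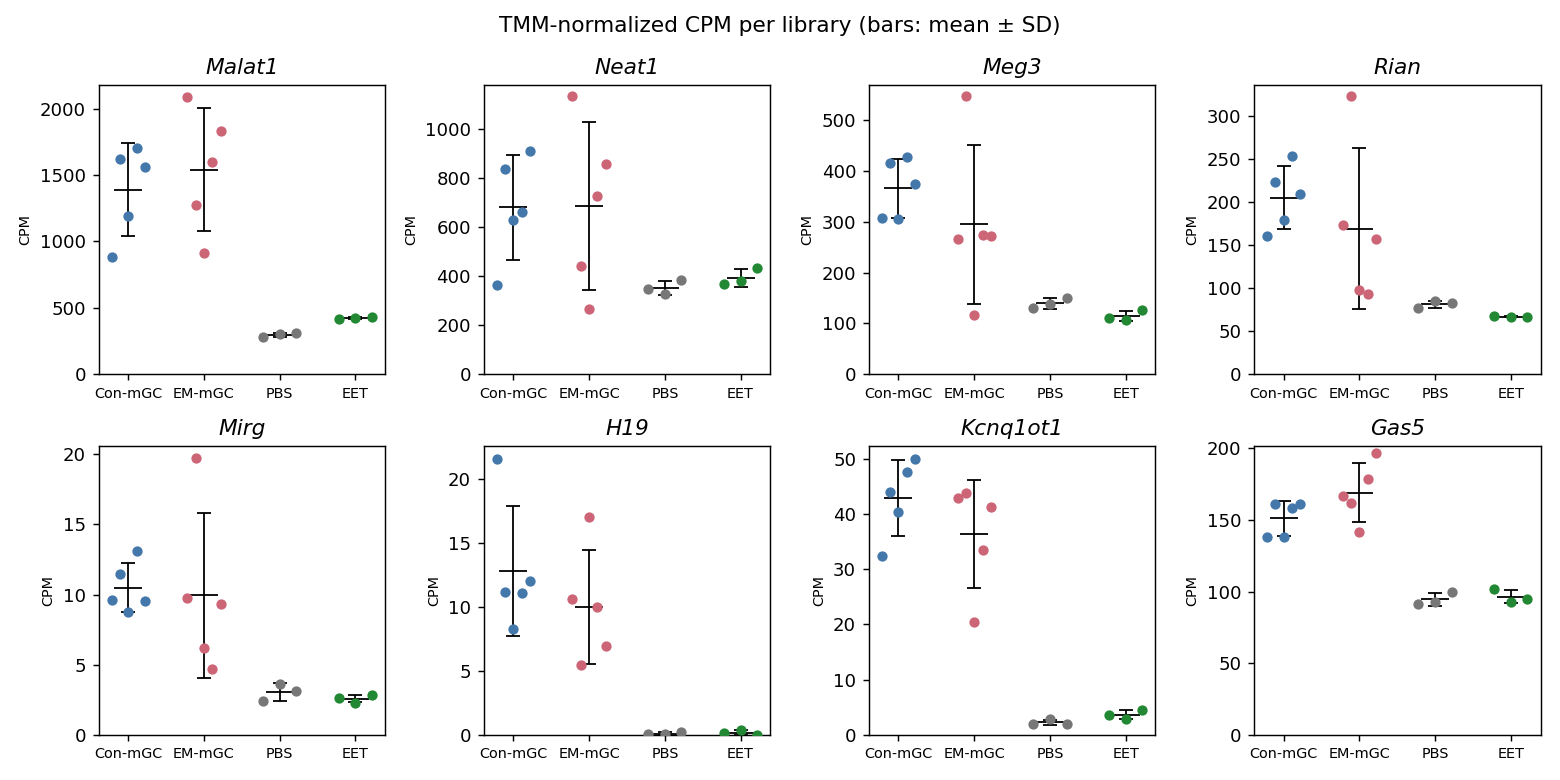
TMM-normalized CPM of the 8 members (linear axes from 0, own range in each panel), with 1 point per library and bars for the mean ± SD in the Con-mGC (n = 5), EM-mGC (n = 5), PBS (n = 3) and EET (n = 3) groups. Con-mGC and EM-mGC points overlap for every member, and Malat1 is 880 to 2090 CPM in fresh cells but 281 to 427 CPM in cultured cells.

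The first comparison, EM-mGC against Con-mGC, asks whether granulosa cells of the endometriosis model differ from those of sham-operated mice. None of the 8 members differed beyond the spread between mice. Malat1 and Gas5 were slightly higher on average in the EM-mGC group, Meg3, Rian, H19, Kcnq1ot1 and Mirg slightly lower, and Neat1 level, with log2 fold changes from -0.37 to 0.15 and a median of -0.16 (-0.01 over all genes). By edgeR's quasi-likelihood test (p-values adjusted by Benjamini-Hochberg) 0 of the 8 members were called, as were 0 of the 17229 genes tested (0%), and 0 members had an unadjusted p under 0.05 against 1626 genes (9.44%). DESeq2 called 0 members too, and 116 genes. The 2 groups overlapped for all 8 members, while 292 genes (1.69%) did not overlap.

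Malat1, the speckle RNA, was 880, 1620, 1189, 1707 and 1562 CPM in Con-mGC-1 to -5 and 2090, 1272, 913, 1600 and 1833 CPM in EM-mGC-1 to -5. The lowest library of each group was the one that stood apart, Con-mGC-1 and EM-mGC-3. Its log2 fold change was 0.14 (95% interval -0.39 to 0.67, adjusted p = 0.871).

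Neat1, its neighbour on chromosome 19, was 362, 839, 630, 660 and 913 CPM in the Con-mGC group and 1137, 443, 267, 727 and 857 CPM in the EM-mGC group. Its lowest libraries were again Con-mGC-1 and EM-mGC-3. The log2 fold change was 0.00 (95% interval -0.76 to 0.76, adjusted p = 0.998) and its sign changed when single libraries were left out.

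Meg3, the first transcript of the maternal Dlk1-Dio3 set, was 308, 415, 306, 428 and 374 CPM in the Con-mGC group and 265, 547, 117, 274 and 271 CPM in the EM-mGC group. In the EM-mGC group 4 of 5 libraries lay below every Con-mGC library, and EM-mGC-2 lay above all of them. The log2 fold change was -0.32 (95% interval -0.98 to 0.34, adjusted p = 0.750). It was -0.67 without EM-mGC-2 and -0.12 without EM-mGC-3, with no call in either.

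Rian, the snoRNA host of the same cluster, was 161, 223, 179, 254 and 209 CPM in the Con-mGC group and 174, 324, 97.4, 93.3 and 158 CPM in the EM-mGC group. EM-mGC-2 was again the highest of the 10 libraries and EM-mGC-3 and -4 the lowest. Its log2 fold change was -0.29 (95% interval -0.94 to 0.36, adjusted p = 0.767), and it was -0.66 without EM-mGC-2 and -0.14 without EM-mGC-4.

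Mirg, the microRNA host at the end of the cluster, was 8.78 to 13.1 CPM in the Con-mGC group and 4.69 to 19.7 CPM in the EM-mGC group, with the same highest library. The coefficient of variation of Meg3, Rian and Mirg was 15.8% to 17.9% in the Con-mGC group and 52.9% to 59.1% in the EM-mGC group. This difference was not tested. The 12 granulosa markers summed to 13889 to 18389 CPM in the Con-mGC group and 7716 to 24579 CPM in the EM-mGC group. Their sum was highest in EM-mGC-2 and lowest in EM-mGC-4, the lowest library for Rian and Mirg but not for Meg3. Among Con-mGC libraries it was highest in Con-mGC-4, as were these RNAs, and lowest in Con-mGC-2, where none of them was lowest. The relation of these RNAs to the sum was not tested. Without the 2 libraries that stood apart the direction of Mirg turned, from -0.08 to 0.02 on the log2 scale.

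H19 was 21.5, 11.1, 8.26, 11.05 and 11.99 CPM in the Con-mGC group and 10.6, 5.45, 16.98, 9.94 and 6.91 CPM in the EM-mGC group. Here Con-mGC-1 and EM-mGC-3 were the highest of their groups, opposite to Malat1 and Neat1. The log2 fold change was -0.37 (95% interval -1.05 to 0.32, adjusted p = 0.722).

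Kcnq1ot1 was 32.4 to 49.9 CPM in the Con-mGC group and 20.3 to 43.8 CPM in the EM-mGC group, a log2 difference of -0.24 (adjusted p = 0.696). Gas5 was 138 to 161 CPM and 141 to 197 CPM, a log2 difference of 0.15 (95% interval -0.08 to 0.39, adjusted p = 0.659), the narrowest interval of the 8. Markers of other cell types moved between these groups without a call: all 11 leukocyte markers had positive log2 fold changes, and their sum was 187 to 385 CPM in the Con-mGC group and 282 to 709 CPM in the EM-mGC group. All 10 endothelial markers (median -0.25) and 10 of 12 theca and stromal markers (median -0.39) had negative ones. Of these 3 lists 7, 2 and 4 genes had an unadjusted p under 0.05. Their part in the members' values was not tested.

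Across the 10 mice the members of 1 locus varied together. Pearson's r of log2 CPM was 0.959 for Rian and Mirg (Spearman's rho 0.867), 0.850 for Meg3 and Rian (rho 0.855) and 0.743 for Meg3 and Mirg (rho 0.733), with permutation p-values of 3e-05, 0.00054 and 0.021 for r and adjusted values over the 7 relations computed of 0.00021, 0.00126 and 0.0294. For rho the permutation p-values were 0.0022, 0.0026 and 0.020 (adjusted 0.0091, 0.0091 and 0.028). Without the 2 mice farthest from the median on the first measure r was 0.941, 0.770 and 0.632. The relation of Meg3 and Mirg no longer passed over these 8 mice (permutation p = 0.068), so its passing depended on EM-mGC-2 and EM-mGC-3. Within the groups, as deviations from the group means, r was 0.973, 0.821 and 0.734. Meg3 also had an r of 0.857 with Kcnq1ot1, on chromosome 7, so varying together was not particular to genes of 1 locus. That r was not among the 7 relations and was not tested.

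EM-mGC-4 left the common line of the cluster. It held 2.94 Meg3 counts per Rian count, against 1.20 to 1.91 in the other fresh libraries, while its 19.9 Rian counts per Mirg count lay within their range of 15.7 to 21.96.

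Malat1 and Neat1, adjacent genes, had an r of 0.919 (rho 0.818, permutation p = 0.00023 and 0.0052, adjusted 0.000805 and 0.0121), and r was 0.795 without Con-mGC-1 and EM-mGC-3 (permutation p = 0.021). As deviations from the group means r was 0.947. The genes most like Malat1 over the 10 libraries were Srsf5 (r = 0.964), a splicing factor of speckles, Rgp1 (r = 0.962) and Phf2os1 (r = 0.959). Those most like Neat1 were Plxnb1, Man2a2 and Vamp1 (r = 0.972, 0.969 and 0.969), and those most like Meg3 were Tmem184c, Camsap1 and Arhgap21 (r = 0.976, 0.963 and 0.959). These were the highest of 14645 genes and share libraries and depth, and predicted genes were passed over.

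The mitochondrial share of counts moved with them. Its r was -0.913 with Meg3 (rho -0.782, permutation p = 0.001 and 0.0099, adjusted 0.00175 and 0.0173), -0.681 with Neat1 (rho -0.345, permutation p = 0.027 and 0.33, adjusted 0.0315 and 0.35) and -0.585 with Malat1 (rho -0.333, permutation p = 0.067 and 0.35, adjusted 0.067 and 0.35). Without Con-mGC-2 and EM-mGC-3, over 8 mice, these were -0.706 (permutation p = 0.051), -0.147 and -0.274. The first 2 thus no longer passed, and r lost far more of its size for Neat1 than for Meg3. As deviations from the group means r was -0.895, -0.723 and -0.742.

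**Figure D2:**
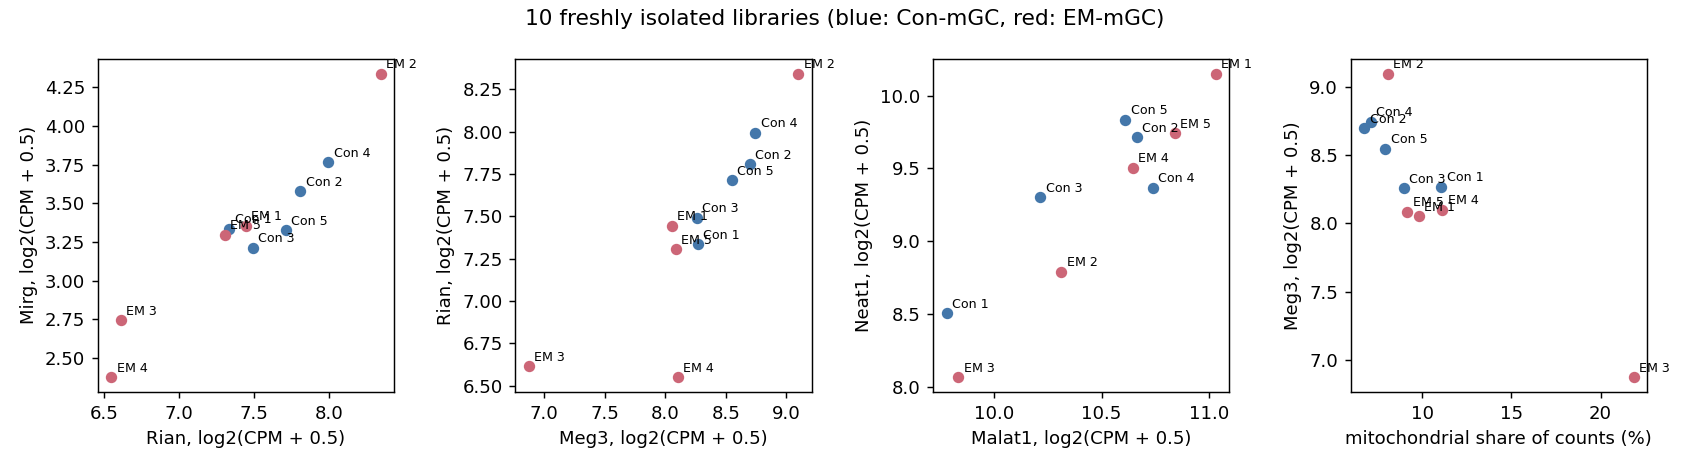
Levels of member pairs as log2(CPM + 0.5), and Meg3 against the mitochondrial share of counts in percent, over the 10 freshly isolated libraries (1 point each, blue for Con-mGC and red for EM-mGC, numbered by replicate). Rian and Mirg lie near 1 line (r = 0.959), EM-mGC-4 falls off the line of Meg3 and Rian, and EM-mGC-3 is far from the rest in mitochondrial share at 21.9%.

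The second comparison sets the PBS group, EM model cells after culture, beside freshly isolated EM-mGC. Culture, experiment and sequencing depth differ together between these groups and cannot be told apart. All 8 members were lower in the PBS group, by 1.81-fold for Gas5 to 89.5-fold for H19, with a median log2 fold change of -1.40 (-0.11 over all genes). By edgeR's quasi-likelihood test 8 of 8 were called lower at an adjusted p under 0.05, beside 11937 of 17301 genes called in all (69%), 6556 lower (37.9%) and 5381 higher (31.1%). At an unadjusted p under 0.05 it was 8 of 8 members and 12422 genes (71.8%). The groups did not overlap for 6 of the 8, all but Neat1 and Meg3, as for 11470 genes (66.3%). Of the 1537 annotated lncRNAs tested, 8 members included, 911 were called lower (59.3%) and 142 higher (9.24%), with a median of -1.24.

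Malat1 was 281, 302 and 307 CPM in PBS-1 to -3, each under the lowest EM-mGC library at 913 CPM. It fell by 2.40 on the log2 scale (SE 0.27, adjusted p = 3.5e-05), or 5.27-fold. Neat1 was 349, 325 and 384 CPM, within the EM-mGC range of 267 to 1137 CPM. It fell by 0.98 on the log2 scale (SE 0.39, adjusted p = 0.0467), a call that was lost when EM-mGC-1, -4 or -5 or any PBS library was left out (adjusted p = 0.0678 to 0.130). Counts of Malat1 per count of Neat1 were 1.71 to 3.42 in all 10 fresh libraries, 0.799 to 0.927 with PBS and 0.983 to 1.13 with 14,15-EET, so the cultured ratios lay below every fresh one.

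Genes that encode proteins of the bodies these RNAs belong to were measured too. The values are of their RNA, and protein was not measured. Of 22 nuclear speckle proteins 15 were called lower and 2 higher (median log2 fold change -0.71), among them Clk1, 4.01-fold lower, and Clk4 at -1.55 on the log2 scale, kinases of splicing factors, and Prpf8 at 0.80 and Prpf6 at 0.48, spliceosome proteins. Of 20 paraspeckle proteins 9 were called lower and 3 higher (median -0.34), with Hnrnph3 at -1.58, the cold-inducible Cirbp at -1.11, Smarca4, a chromatin remodeller, at 1.13 and Rbm14 at 0.78. These lists were written with results of these data known, and their medians are given beside -0.11 over all genes tested.

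Kcnq1ot1 was 1.96, 2.85 and 1.99 CPM in the PBS group against 42.8, 43.8, 20.3, 33.4 and 41.2 CPM in EM-mGC-1 to -5, far apart. It fell by 4.01 on the log2 scale (SE 0.30, adjusted p = 2.8e-06), or 16.1-fold. The 93.1 kb transcript runs antisense to Kcnq1, whose span overlaps it, and the strand setting of the counting was not given, so reads of the 2 genes cannot be told apart where they overlap. Kcnq1, a potassium channel, had 4 counts in the PBS group and fell by 5.95 on the log2 scale (adjusted p = 4.5e-06).

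Of the 9 partner genes of the Kcnq1ot1 cluster tested, 4 were called higher and 3 lower. Cdkn1c, a cell cycle inhibitor, was 1.37 ± 0.360 CPM in the PBS group and 3.74 ± 0.752 CPM in EM-mGC, a fall of 1.47 on the log2 scale (adjusted p = 0.00123), and the leukocyte gene Tspan32 fell by 2.49. Trpm5, an ion channel, rose by 1.73, the tetraspanin Cd81 by 1.47, Osbpl5, a lipid carrier, by 0.84 and Tssc4 by 0.58. Nap1l4 (log2 fold change -0.03) and Dhcr7 (0.19) did not pass. Kcnq1ot1 was thus lower together with Kcnq1, Cdkn1c and Tspan32, while 4 partners were higher.

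H19 had 1, 1 and 5 counts in PBS-1 to -3 and 4, 9 and 0 counts in EET-1 to -3, against 90 to 222 counts in the EM-mGC libraries, which were sequenced less deeply. It fell by 6.48 on the log2 scale (SE 0.61, 95% interval -7.85 to -5.12, adjusted p = 1.2e-05). Igf2, its growth factor partner, had 9, 8, 5 and 2 counts in the Con-mGC, EM-mGC, PBS and EET groups and was too low to be tested in any. Of the 3 neighbours tested, Th and Lsp1 were called lower and Mrpl23 did not pass (log2 fold change 0.15). Th had 87 counts in EM-mGC and 0 in PBS, at least 25.1-fold lower when set against a floor of 3 counts over the group, and Lsp1, a leukocyte actin-binding protein, fell by 2.31 on the log2 scale.

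Meg3 was 130, 138 and 150 CPM in the PBS group, below 4 of the 5 EM-mGC libraries and above EM-mGC-3 at 117 CPM. It fell by 1.10 on the log2 scale (SE 0.38, adjusted p = 0.0246). Rian was 76.9, 84.7 and 83.1 CPM, under the lowest EM-mGC library at 93.3 CPM, and fell by 1.07 (SE 0.36, adjusted p = 0.0240). Both calls were lost without any 1 of the PBS libraries (adjusted p = 0.0566 to 0.0810), at nearly the same fold change. Mirg was 2.40, 3.64 and 3.16 CPM against 4.69 to 19.7 CPM and fell by 1.71 (SE 0.44, adjusted p = 0.00571).

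The protein-coding partners of the Dlk1-Dio3 cluster did not move as 1 block. Dlk1, a membrane ligand of progenitor cells, was 52.5 ± 2.60 CPM in the PBS group (n = 3) and 1.90 ± 0.641 CPM in EM-mGC (n = 5), a rise of 4.76 on the log2 scale (SE 0.22, adjusted p = 2.3e-07), while the maternal RNAs beside it fell. Rtl1, a retrotransposon-derived gene read opposite to maternal microRNAs, fell by 2.89 (adjusted p = 0.00171). Dio3, the enzyme that inactivates thyroid hormone, had 238 counts in EM-mGC and 3 in PBS, a ratio of 67.3 after library scaling (95% counting interval 22.8 to 329). Its antisense neighbour Dio3os had 205 and 0 counts, at least 57.6-fold lower against the same floor. Wars1 rose by 1.40, and Begain (log2 fold change -0.83, adjusted p = 0.106) and Wdr25 (0.33, adjusted p = 0.102) did not pass.

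**Figure D3:**
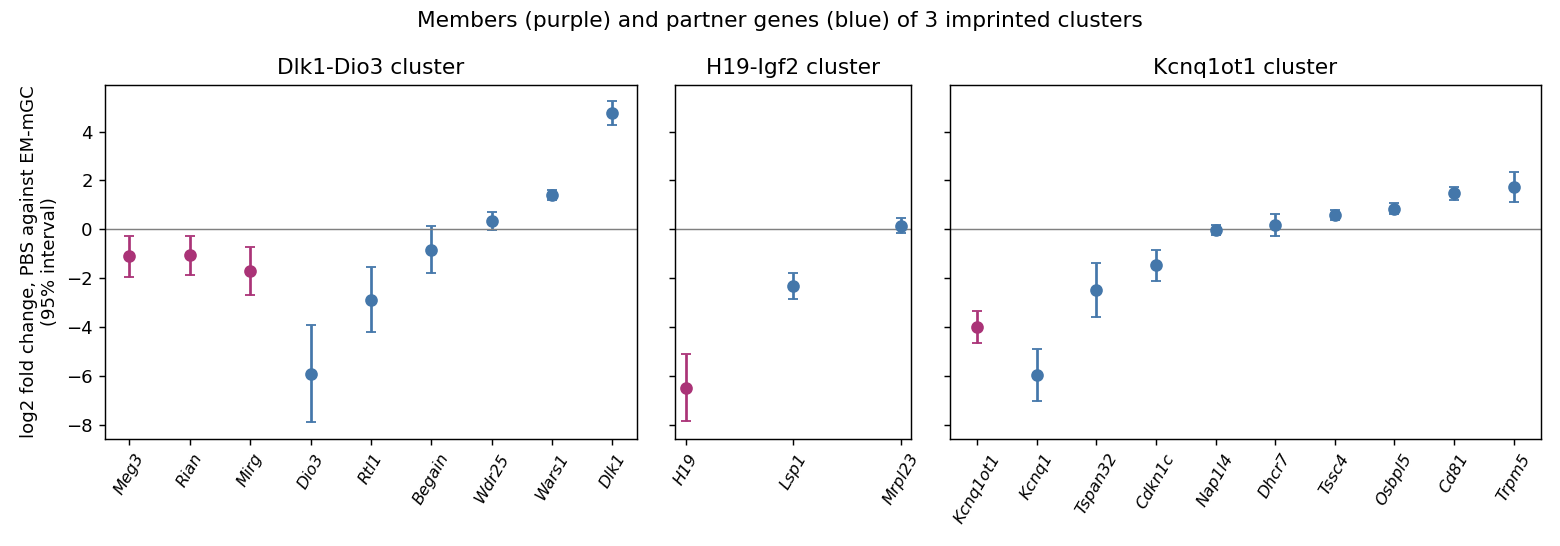
Log2 fold change of the PBS group (n = 3) against EM-mGC (n = 5) with its 95% interval, for members (purple) and tested partner genes (blue) of 3 imprinted clusters. Dlk1 lies at 4.76 while Meg3, Rian and Mirg lie at -1.10, -1.07 and -1.71. Dio3os and Th, with 0 counts in the PBS group, are left out.

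Gas5, the last member, was 91.4, 92.8 and 99.9 CPM in the PBS group, under the lowest EM-mGC library at 141 CPM. It fell by 0.86 on the log2 scale (SE 0.12, adjusted p = 0.000126), the smallest change of the 8. Of 17 other snoRNA host genes tested 12 were called lower and 2 higher (median -0.80), with Snhg20 at -1.36 and Snhg1 at -1.30, and with the protein-coding hosts Rack1 at 0.63 and Eif4a1 at 0.49. Zbtb37 overlaps Gas5 on the other strand. Its 3791 fresh and 1456 cultured counts are below those of Gas5, and reads of the 2 genes cannot be told apart where they overlap.

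Of 16 other long noncoding RNAs tested 10 were called lower and 0 higher (median -1.49), with Dnm3os at -4.47 and Mir17hg, a microRNA host, at -2.35. Of 27 other imprinted genes 13 were called lower and 7 higher (median -0.34), with the proteoglycan gene Dcn at -6.02, the amino acid transporter gene Slc38a4 at -2.90, Peg10 at 2.48 and Gnas, which encodes a G protein subunit, at 1.96. Imprinted genes outside the 3 clusters thus had calls in both directions, as all genes tested did. No member was called higher, beside 0 of these 16 long noncoding RNAs and 9.24% of the 1537 annotated lncRNAs tested.

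**Figure D4:**
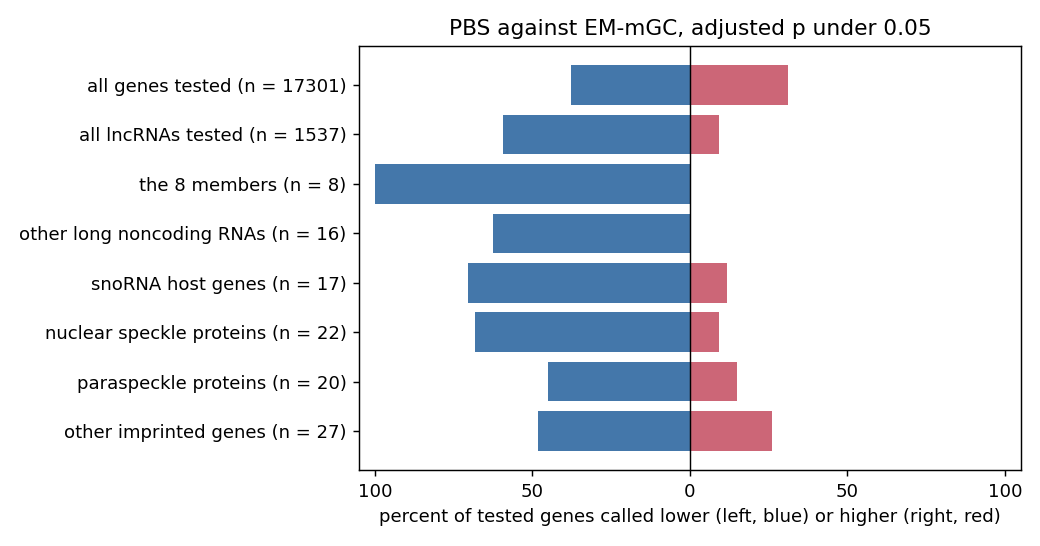
Percent of tested genes called lower (left) or higher (right) at an adjusted p under 0.05 in the PBS group (n = 3) against EM-mGC (n = 5), for all genes, annotated lncRNAs, the 8 members and 5 lists. All genes were called lower in 37.9% and higher in 31.1%, lncRNAs in 59.3% and 9.24%, and the members in 8 of 8 and 0.

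Cell types differed between these groups beside the members. Markers of other cells were lower in culture: the 5 red blood cell markers summed to 2439 to 16049 CPM in EM-mGC and 0.208 to 0.219 CPM in PBS, 10 oocyte markers to 106 to 828 and 1.21 to 1.36 CPM, 10 endothelial markers to 115 to 214 and 8.10 to 10.2 CPM, and 11 leukocyte markers to 282 to 709 and 15.9 to 18.9 CPM. Hba-a2, Hbb-bs, Hbb-bt, Zp1, Oosp1, Nlrp5, Dppa3, Cldn5, S100a8 and S100a9 were at 0 in all PBS libraries. Of 12 granulosa markers 11 were called lower: the transcription factor Foxl2 was 146 ± 9.83 CPM in PBS against 219 ± 51.8 CPM, while Cyp19a1, the estrogen-making aromatase, was 0.169 ± 0.190 CPM against 288 ± 192 CPM and Amh 0.302 ± 0.119 CPM against 52.1 ± 19.9 CPM. Inhba did not pass (2220 ± 70.2 CPM against 2221 ± 1506 CPM). Of 12 theca and stromal markers 8 were called lower, and their sum was 5776 to 6461 CPM in PBS and 5067 to 10814 CPM in EM-mGC. Most of that sum was Cyp11a1, the enzyme that starts steroid synthesis, at 5236 ± 317 against 6855 ± 1837 CPM (adjusted p = 0.197), while the androgen enzyme gene Cyp17a1 was 0.0363 ± 0.0629 against 207 ± 58.0 CPM and the collagen gene Col3a1 16.9 ± 2.24 against 402 ± 117 CPM. The sum of 8 smooth muscle and pericyte markers was 579 to 777 CPM against 125 to 288 CPM, although 5 of the 8 were called lower and 2 higher (median log2 fold change -1.45). The actin gene Acta2 carried the sum, at 624 ± 107 against 131 ± 53.7 CPM, while Myh11 and Des fell by 1.90 and 3.63 on the log2 scale. The sum of 9 surface epithelium markers was 179 to 194 CPM against 117 to 318 CPM, with 7 called lower and 2 higher. In bulk RNA, fewer cells of a type and less RNA per cell cannot be told apart, and the part of these markers in the members' values was not tested.

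The third comparison, EET against PBS, asks what 14,15-EET changes in cultured EM model cells. Because Malat1 was picked for its rise here, the members' values are given as a description, and nothing is read from their count. Malat1, Meg3 and Rian did not overlap between the groups, 3 of the 7 members that passed the filter on low counts, beside 2656 of 15050 genes (17.6%). Of all genes 184 were called (1.22%), 75 higher (0.498%) and 109 lower (0.724%), and 341 with equal library numbers taken as pairs. H19, the eighth member, did not pass the filter.

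Malat1 was 412, 426 and 427 CPM in EET-1 to -3 and 281, 302 and 307 CPM in PBS-1 to -3. Its mean was 422 ± 8.26 CPM against 297 ± 13.3 CPM, a log2 fold change of 0.51 (1.43-fold). Both levels lay under the lowest fresh library at 880 CPM. Neat1 was 366, 380 and 435 CPM against 349, 325 and 384 CPM, overlapping groups with a log2 fold change of 0.16. RNAs of the 22 nuclear speckle proteins had a median log2 fold change of 0.08 and those of the 20 paraspeckle proteins 0.05. The median was 0.00 over all genes, and 0 of either list were called.

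Meg3 was 111, 107 and 125 CPM with 14,15-EET and 130, 138 and 150 CPM with PBS, so its highest EET library lay just under its lowest PBS library. Rian was 68.2, 66.5 and 66.6 CPM against 76.9, 84.7 and 83.1 CPM. Mirg was 2.62, 2.29 and 2.82 CPM against 2.40, 3.64 and 3.16 CPM and overlapped. The log2 fold changes of the 3 were -0.28, -0.28 and -0.26. Dlk1, from the paternal copy of that cluster, was 74.0 ± 4.23 CPM against 52.5 ± 2.60 CPM (n = 3 each), a log2 fold change of 0.50. Of 4 partners of the cluster tested it was the only 1 called. The other log2 fold changes ran from -0.04 for Begain to 0.11 for Wdr25. Counts of Meg3 per count of Rian were 1.61 to 1.88 with 14,15-EET and 1.63 to 1.81 with PBS.

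Kcnq1ot1 was 3.59, 2.81 and 4.50 CPM with 14,15-EET, from 92, 65 and 94 counts, and 1.96, 2.85 and 1.99 CPM with PBS, from 36, 65 and 48 counts. Its log2 fold change of 0.67 was larger than that of Malat1, but its groups overlapped by 1 library on each side. Cdkn1c, which this RNA is known to silence in cis, was 0.764 ± 0.254 CPM against 1.37 ± 0.360 CPM (log2 fold change -0.82), at 53 and 88 counts over the groups. It was 1 of 7 partners of the cluster tested, of which 0 were called, and the others ranged from -0.12 for Tssc4 to 0.28 for Trpm5. Gas5 was 102, 92.7 and 94.9 CPM against 91.4, 92.8 and 99.9 CPM (log2 fold change 0.03).

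**Figure D5:**
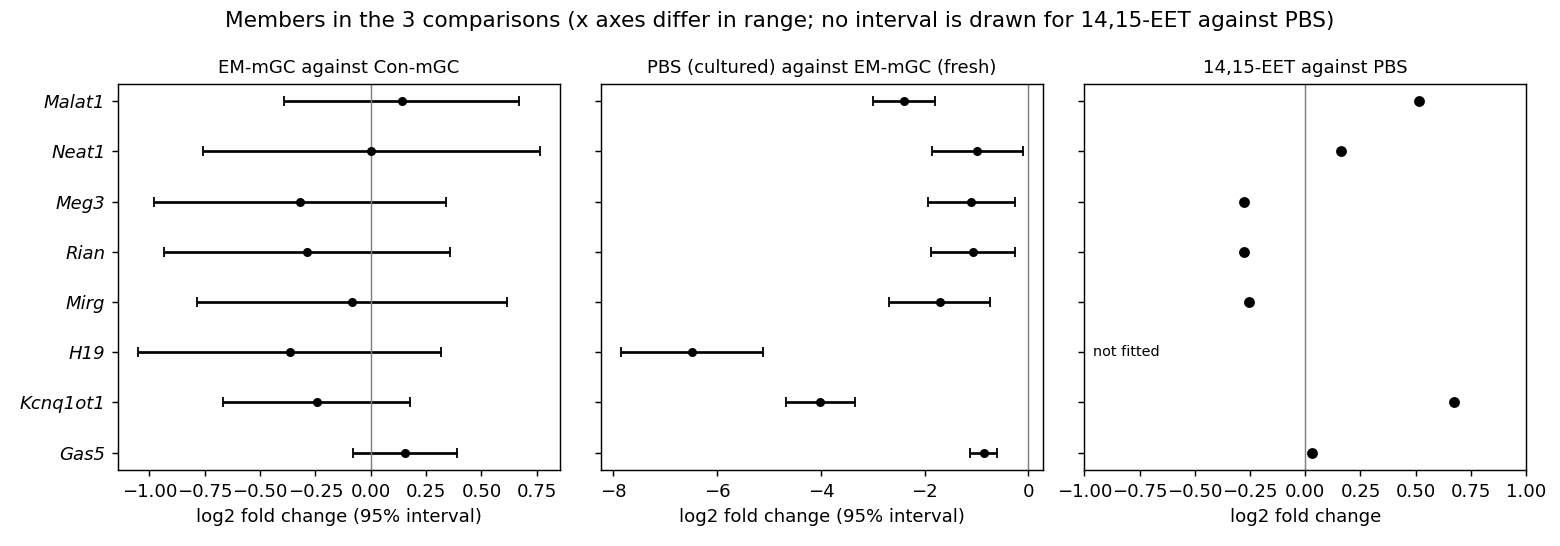
Log2 fold changes of the members in the 3 comparisons, with 95% intervals in the first 2 panels (x axes differ in range). Every interval of EM-mGC (n = 5) against Con-mGC (n = 5) spans 0 and every one of PBS (n = 3) against EM-mGC lies below 0. The points of EET (n = 3) against PBS run from -0.28 for Meg3 and Rian to 0.67 for Kcnq1ot1, without intervals because Malat1 was chosen on that comparison, and H19 was too low to be fitted.

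The second comparison shares its EM-mGC libraries with the first and its PBS libraries with the third. Malat1 and Kcnq1ot1 had log2 fold changes of -2.40 and -4.01 in PBS against EM-mGC and of 0.51 and 0.67 in EET against PBS. Meg3 and Rian had -1.10 and -1.07 in PBS against EM-mGC and -0.28 each in EET against PBS. Since 1 set of PBS libraries enters both, these pairs are set side by side only.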

How the data were processed

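RNA-seq of 16 mGC libraries was taken from 2 tables of raw read counts per Ensembl gene (57010 genes each) deposited by the authors, who used a stranded poly(A) kit with 150 bp paired reads. The submitters' processing notes name fastp, HISAT2, StringTie and GRCm39, and the tables have the layout of featureCounts. Versions, strandedness of the counting and how reads in overlapping genes were handled were not given in the sources used here. Members and gene lists were chosen with earlier results of these data known.

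Genes were kept with edgeR's filterByExpr, scaled by TMM and compared by the quasi-likelihood test, with p-values adjusted by Benjamini-Hochberg over all genes and a threshold of 0.05, in 3 fits (R 4.3.3, edgeR 4.0.16). Levels are TMM-scaled CPM over 16 libraries, and log2 fold changes come from each fit. Correlations used log2(CPM + 0.5) and 100000 permutations (two-sided). Exon lengths are from GENCODE vM21 and sequences from RefSeq or GENCODE on GRCm38, matched by symbol or gene ID. No coordinates were converted between builds.

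All 8 members and the tested cluster partners were named. Of other lists, the 2 called genes with the highest and the 2 with the lowest log2 fold change were named, and defining markers of cell types by their levels. In the likeness ranking the 3 genes with the highest r were named, leaving out predicted genes (Gm or Rik symbols). Tests were run on simulated data with 200 genes changed by 2-fold or 4-fold. For EM-mGC against Con-mGC 149 of 200 were recovered with 12 false calls, 60 of 100 at 2-fold and 89 of 100 at 4-fold. For PBS against EM-mGC 140 were recovered with 4 false calls, 48 of 100 at 2-fold and 92 of 100 at 4-fold. Changes under 2-fold, such as those of all members between EM-mGC and Con-mGC, were not simulated. Alternatives were DESeq2 1.42.0, RLE scaling, protein-coding genes for scaling, 2 other filters, no mitochondrial genes, a replicate block and each library left out. Replicates of a group differed by more than sampling noise. That they are separate mice (Con-mGC and EM-mGC) rests on the labels and methods. Total counts were 14229123 to 29482826 per library, and intervals on counts cover counting error only. 0 columns were left unused.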

Additional observations from a re-analysis of the deposited data

Results flagged for a closer look

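H19 in Con-mGC-1 was 21.5 CPM (354 counts), against 8.26 to 11.99 CPM in the other Con-mGC libraries, a gap to the nearest library that was larger than Dixon's 95% critical value for 5 samples. It was 1 of 16 groups of 5 libraries examined (8 members in 2 groups), and chance marks about 1 group in 20. The same library had the fewest genes detected of the fresh libraries (22071) and the lowest Malat1 of its group (880 CPM). Without it the log2 fold change of H19 between EM-mGC and Con-mGC was -0.09, beside -0.37 with it.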

How the results depend on the processing

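Of the 368 alternative values computed for single members and for the correlations, 338 kept their direction and, where there was a test, their side of the threshold, 16 lost the threshold in the same direction, 1 newly passed it and 13 changed sign. For EM-mGC against Con-mGC, 0 genes were called in the reported fit, 116 with DESeq2, 4 without a filter, 2 with a replicate block, and 0 to 46 when 1 library was left out (46 without Con-mGC-3, 1 without EM-mGC-1). None of these fits called a member. With single libraries left out Malat1 ranged there from 0.01 to 0.28, Meg3 from -0.67 to -0.12, Rian from -0.66 to -0.14, H19 from -0.64 to -0.09, Kcnq1ot1 from -0.32 to -0.10 and Gas5 from 0.09 to 0.21. Neat1 changed sign to -0.0023 with at least 10 counts in every library and -0.12 with the replicate block, and ranged from -0.25 to 0.21 with single libraries left out. Mirg ranged from -0.49 to 0.10 with single libraries left out, and was 0.0185 without Con-mGC-1 and EM-mGC-3, an alternative chosen after seeing the data. For EET against PBS, 184 genes were called in the reported fit, 322 with DESeq2, 662 without a filter, 341 with the replicate block and 48 to 436 with 1 library left out (48 without EET-3, 436 without PBS-2). With 1 library left out Malat1 ranged from 0.48 to 0.53, Neat1 from 0.08 to 0.22, Meg3 from -0.35 to -0.23, Rian from -0.32 to -0.25, Mirg from -0.39 to -0.11, Kcnq1ot1 from 0.50 to 0.88 and Gas5 from -0.0067 to 0.0671. Malat1 was chosen on these same libraries, so its narrow range describes them and is no support for its rise. The 368 values include those of this comparison. For PBS against EM-mGC all 8 members stayed lower in every alternative that gave a value, H19 having none with at least 10 counts in every library. Protein-coding scaling moved the median of all genes by -0.09 and called 4812 genes higher and 7084 lower. The cause of these changes was not tested.

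The methods call the PBS and EET replicates paired, but no label ties equal numbers to a pair. For same-numbered libraries, correlations of deviations from the group means were -0.25 to 0.22 (EM-mGC and Con-mGC), -0.02 to 0.10 (EET and PBS) and -0.04 to 0.05 (PBS and EM-mGC). The limit of 0.1 was not passed by every pair of any comparison. Since the value of 0.22 came from separate mice, this check cannot decide the pairing. With the block Neat1 in PBS against EM-mGC was -0.56 (adjusted p = 0.204 by edgeR), and the block ended no other call of a member. For EET against PBS, where values are a description only, it left Malat1 at 0.51 and Kcnq1ot1 at 0.67. H19, at 0 to 9 counts in a cultured library, was too low for the fit of EET against PBS, and the 3 PBS libraries limit Neat1, Meg3 and Rian, whose calls were lost without 1 of them.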

Other observations

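Phlda2, an imprinted gene of the Kcnq1ot1 cluster that was too low to be tested, had 0 counts in all 5 Con-mGC libraries together, 16 counts over the EM-mGC group and 0 in the PBS and EET groups. It was chosen after its values were seen.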
